A study of Mus musculus with 2 samples.

Results

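The 10 mouse genes Slit1, Slit2, Slit3, Robo1, Robo2, Robo3, Robo4, Srgap1, Srgap2 and Srgap3 were taken by symbol and matched by Ensembl identifier in the gene tables, and their 71 transcripts in the transcript tables. All 10 of 10 were found, among 43346 mouse genes in the tables. Slit proteins are secreted ligands that repel growing axons, and the floor plate at the ventral midline of the neural tube is their best known source. Robo proteins are the receptors on axons, and they keep axons that have crossed the midline from crossing back. The Srgap proteins bind the inner part of Robo receptors and act on the cytoskeleton and on the shape of the cell membrane.

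The RNA came from the neural tube of healthy B6NCrl mouse embryos at embryonic day 12.5, the forerunner of brain and spinal cord. There was 1 group with 2 biological replicates, each a pool of embryos of both sexes. The pool of replicate 2 held 88 embryos and that of replicate 1 held 120, and both carry the same donor identifier in the labels. Each library was made from 10 ng of total RNA longer than 200 nucleotides, and the labels name no treatment and no mutant allele. With 1 group and 2 pools no p-value was computed, and each SD rests on n = 2.

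Depth was 34555002 expected counts for replicate 2 and 32612423 for replicate 1. The 10 genes held 0.114% of mouse gene counts in replicate 2 and 0.115% in replicate 1. Genes listed as markers of tissue next to the neural tube were also present, and whether their RNA came from that tissue alone was not tested. The summed level of 6 muscle markers was 225 TPM in replicate 2 and 312 in replicate 1, and that of 5 sensory ganglion markers was 446 TPM and 314 TPM. TPM is a level per length and per summed transcripts of the library, that is, corrected for length and depth. In bulk tissue, fewer cells of a type and less RNA per cell cannot be told apart.

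All 10 of 10 genes were detected, that is, at 1 TPM or more in both libraries, against 62.1% of 21474 protein-coding genes. Robo3 was the highest of them at 104 ± 1.54 TPM (mean ± SD, n = 2), and Robo4 the lowest at 5.90 ± 0.615 TPM. The order by gene TPM was Robo3, Slit2, Slit3, Robo2, Robo1, Srgap3, Srgap1, Slit1, Srgap2 and Robo4, and no neighbours in it had overlapping values in the 2 libraries. Robo3 lay at or above 92.7% of all protein-coding genes and Robo4 at or above 50.5%.

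That order did not hold when only full-length coding transcripts were summed. A transcript was called full-length coding if it was annotated as protein-coding with at least 75% of the longest coding length of its gene. On that scale the order was Robo3, Robo1, Slit2, Robo2, Slit1, Srgap3, Slit3, Srgap1, Srgap2 and Robo4, with overlapping values for Robo2 and Slit1 and for Srgap2 and Robo4. Slit3 differed most between the scales in proportion, with 8.55 ± 0.170 TPM of full-length coding transcripts and 57.6 ± 5.48 TPM for the whole gene.

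**Figure D1:**
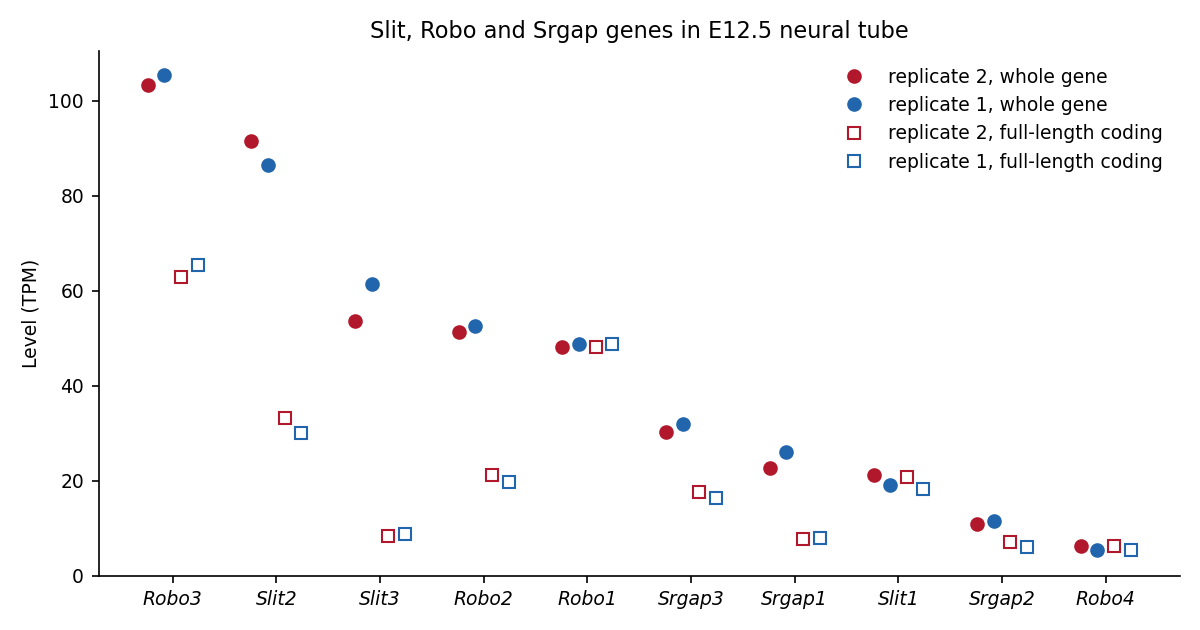
Level of each gene in TPM (vertical axis) in replicate 2 (red) and replicate 1 (blue), as the value of the whole gene (filled circles) and of full-length coding transcripts alone (open squares). Robo1, Slit1 and Robo4 have nearly the same value on both scales, whereas Slit3 stands at 53.7 and 61.5 TPM as a gene and at 8.43 and 8.67 TPM as full-length coding transcripts.

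Among the ligands, Slit2 was the highest on every scale used. Its gene value was 91.5 TPM in replicate 2 and 86.5 in replicate 1, which was 53.4 ± 2.30% of the summed Slit TPM. Slit3 had 53.7 TPM in replicate 2 and 61.5 in replicate 1, or 34.5 ± 3.17% of the sum. Slit1 had 21.1 TPM in replicate 2 and 19.2 in replicate 1, or 12.1 ± 0.875%. In gene TPM the 3 ligands differed among themselves by far more than each differed between the pools.

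Slit1 and Slit3 changed places between scales. In expected counts, a scale with no correction for length, Slit1 had 2264 in replicate 2 and 1927 in replicate 1, and Slit3 had 1916 and 2025, so the values of the 2 genes overlapped. The effective length behind the TPM of Slit3 was 1728 bases in replicate 2 and 1657 in replicate 1, against 5187 and 5055 bases for Slit1. As full-length coding transcripts, Slit1 had 20.7 TPM in replicate 2 and 18.3 in replicate 1, above Slit3 in both.

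The short effective length of Slit3 came with 1 transcript. Slit3-202, a processed transcript of 1218 bases with no annotated coding part, had 43.8 TPM in replicate 2 and 50.5 in replicate 1, or 81.6% and 82.2% of the gene. It covers exons 6 to 14 of the 36 exons of Slit3-201, and 974 of its 1218 bases lie in exons of that coding transcript. The coding transcript Slit3-201 had 8.43 TPM in replicate 2 and 8.67 in replicate 1. In expected counts the coding transcript held a larger part, 46.6% in replicate 2 and 43.7% in replicate 1.

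Slit2 was also spread over transcripts without a full coding part. Slit2-207, a transcript with a retained intron that shares exons 1 to 6 with the coding Slit2-202, led the gene at 27.5 TPM in replicate 2 and 26.5 in replicate 1. Slit2-202 followed at 24.5 TPM in replicate 2 and 22.1 in replicate 1. Slit2-209, which has 388 bases in the tables and lies within exons 6 to 14, had 18.8 TPM in replicate 2 and 17.3 in replicate 1. Of the 20 Slit2 transcripts in the tables, 9 were at 0 in both libraries, and 16 have another length or no entry in the annotation used here, so their exons may differ from those that were counted. This holds for 22 of the 71 transcripts of the 10 genes, among them 3 of Robo2, 2 of Robo4 and the main spliced form Robo3-202, with 4714 bases in the tables and 4797 in the annotation.

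Slit1 was nearly all full-length coding, at 98.1% of the TPM of the gene in replicate 2 and 95.6% in replicate 1. Its TPM was divided about evenly between Slit1-203, with 10.6 TPM in replicate 2 and 8.52 in replicate 1, and Slit1-201, with 10.1 TPM and 9.80 TPM. Slit1-203 led in replicate 2 and Slit1-201 in replicate 1, which made Slit1 the 1 gene of the 9 with 2 or more transcripts whose leading transcript differed between the libraries, against 7.35% of 8079 protein-coding genes with at least 5 TPM and 2 transcripts. The coding lengths of the pair are 4374 bases for Slit1-203 and 4593 for Slit1-201, and the transcripts differ at both ends.

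Slit1 and Slit2 share a small exon, shown because the full-length coding forms of Slit2 in the annotation differ by whether they hold it. It is 24 bases long in both genes and is exon 15 of Slit1-201 (GRCm38 chr19:41638883-41638906, minus strand) and exon 16 of Slit2-202 (GRCm38 chr5:48220967-48220990, plus strand). The letters below were read from GENCODE M21 transcripts, with the bases that differ between the 2 genes in capitals.
Slit1-201 exon 15: cCaaagaGcagtaCttcattccag
Slit2-202 exon 16: cTaaagaAcagtaTttcattccag

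The exons match at 21 of 24 bases (87.5%), more than the 66.3% of aligned bases over the whole coding parts of Slit1 and Slit2. All 33.3 TPM of full-length coding Slit2 in replicate 2 and all 30.1 TPM in replicate 1 were assigned to transcripts that hold the exon. The 2 annotated transcripts that lack it, Slit2-208 and Slit2-216, were listed at 0 in both libraries. Taken from the posterior mean in place of the maximum likelihood, the share with the exon was 98.59% in replicate 2 and 98.96% in replicate 1.

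A second small Slit2 exon was in the minority. It is the 27-base exon 31 of Slit2-217 (GRCm38 chr5:48263641-48263667, plus strand), absent from Slit2-202. It is printed in capitals with 15 bases of the neighbouring exons on each side.
Slit2-217 exon 31: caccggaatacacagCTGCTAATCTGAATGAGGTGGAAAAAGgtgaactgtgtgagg

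Slit2-217 had 8.80 TPM in replicate 2 and 8.04 in replicate 1, so that 26.5% of full-length coding Slit2 in replicate 2 and 26.7% in replicate 1 held the exon (mean 26.6 ± 0.166%). The pools agreed closely on this share. In the tables the pair also differs in length outside the exon, with 5139 bases for Slit2-217 and 6854 for Slit2-202, so reads outside the exon also bear on it.

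Slit2 and Slit3 each carry a copy of the microRNA miR-218 in an intron. MicroRNAs pair with target messages through a seed, bases 2 to 8, and Robo1 and Robo2 are among the known targets of miR-218. The hairpins lie in intron 16 of Slit2-202 (GRCm38.p6 chr5:48223942-48224051, plus strand) and intron 14 of Slit3-201 (GRCm38.p6 chr11:35616816-35616925, plus strand). Both give the same mature RNA, whose RefSeq sequence is printed with the seed in capitals.
mmu-miR-218-5p: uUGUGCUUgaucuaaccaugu

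Both hairpin genes, Mir218-1 and Mir218-2, were listed at 0 counts in both libraries. The libraries were made from RNA longer than 200 nucleotides and the hairpins have 110 bases, so the mature RNA was not measured.

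Among the receptors, Robo3 held the largest part of the TPM. Robo3 is the receptor of commissural axons that lets them reach the midline; in mammals it binds Nell2 and does not bind Slit proteins tightly. It had 103 TPM in replicate 2 and 106 in replicate 1, or 49.5 ± 0.209% of the summed Robo TPM. Robo1 and Robo2, the main Slit receptors on axons, came next: Robo2 with 51.4 TPM in replicate 2 and 52.6 in replicate 1, and Robo1 with 48.2 TPM and 48.7 TPM.

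Robo4, a receptor known from blood vessel endothelium, made up 2.80 ± 0.321% of the Robo sum. It had 6.33 TPM in replicate 2 and 5.46 in replicate 1, from 475 and 396 expected counts. All 9 endothelial markers were detected, at 7.995 TPM (Tek) to 46.3 TPM (Cldn5) on average, and Robo4 was below each of them. The summed level of these markers was 196 TPM in replicate 2 and 185 in replicate 1. Cldn5, Esam and Kdr were the highest 3.

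Robo1 had 1 transcript in the tables, Robo1-201, so its gene value and its full-length coding value are the same. Robo2 was divided among 9 transcripts. Robo2-209, of 4057 bases in 2 exons with 18.9% of its bases in exons of full-length coding transcripts, had 14.1 TPM in replicate 2 and 15.8 in replicate 1 and led the gene. The full-length coding Robo2-202 had 12.1 TPM in replicate 2 and 11.6 in replicate 1, and Robo2-203 had 9.15 TPM and 8.18 TPM. Full-length coding Robo2 thus came to 21.2 TPM in replicate 2 and 19.7 in replicate 1, below Robo1 in both libraries, whereas the gene value of Robo2 was above it. Robo2-201 was left out of that sum because its coding part in the annotation used is short, but it has 4764 bases in the tables against 886 there. With it the sum would be 24.9 TPM in replicate 2 and 24.5 in replicate 1, still below Robo1 but no longer overlapping Slit1.

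Robo1 and Robo2 are neighbours on chromosome 16 with their 3′ ends facing each other across 845743 bases. Robo4 and Robo3 lie on chromosome 9 in the same arrangement, with 553 bases between them. Over their coding parts, Robo pairs matched at 57.3% (Robo3 and Robo4) to 61.9% (Robo1 and Robo2) of aligned bases.

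Robo3 is made in forms that differ at the inner end of the protein. The form with a spliced intron is known as Robo3.1 and is found on axons before they cross, and the form that keeps the intron is known as Robo3.2 and is found after crossing. The intron is intron 26 of Robo3-202, of 405 bases (GRCm38 chr9:37416921-37417325, minus strand). The letters around it are printed from GENCODE M21 because they are where the protein ends diverge. The first 30 bases, in lower case, are the end of exon 26. Capitals mark the start of exon 27 in the spliced form, and the retained intron up to its first stop codon in frame in the other.
Robo3-202, spliced: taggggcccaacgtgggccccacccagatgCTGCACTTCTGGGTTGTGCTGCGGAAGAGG
Robo3-205, retained: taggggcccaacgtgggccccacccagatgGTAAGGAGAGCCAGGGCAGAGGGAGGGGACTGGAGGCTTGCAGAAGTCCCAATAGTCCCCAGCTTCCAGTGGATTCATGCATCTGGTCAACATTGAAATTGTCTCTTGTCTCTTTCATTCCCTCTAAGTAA

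In the retained form the reading frame runs for 131 bases into the intron and ends at TAA. In the spliced form 233 coding bases follow the junction. Robo3-205 carries the annotation of a target of nonsense-mediated decay, the pathway that removes messages with an early stop codon. For that annotation Robo3-205 was not counted as full-length coding, although its coding part has 4035 bases against 4206 in Robo3-202.

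The spliced form was the main one in both libraries. Among transcripts that run from a first exon to the last, spliced Robo3-202 had 63.0 TPM in replicate 2 and 65.4 in replicate 1. Retained Robo3-205 had 5.55 TPM in replicate 2 and 5.40 in replicate 1. The retained form was thus 8.10% in replicate 2 and 7.63% in replicate 1, or 7.86 ± 0.334% on average. These are shares of the TPM assigned to such transcripts. Whether reads in the intron came from finished messages or from RNA not yet spliced was not tested. The deposited interval of Robo3-205 ran from 3.62 to 7.11 TPM in replicate 2 and from 3.42 to 6.48 TPM in replicate 1, well below that of Robo3-202.

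The share depends on which transcripts are counted. The shorter transcript Robo3-203, which starts inside the gene and also keeps the intron, had 9.88 TPM in replicate 2 and 11.4 in replicate 1. The shorter transcript Robo3-206, in which this intron is spliced, had 23.0 TPM in replicate 2 and 22.7 in replicate 1. Robo3-203 and Robo3-206 are both annotated as retained intron transcripts, with no annotated coding part. Outside the exons of full-length coding transcripts lie 969 bases of Robo3-203 and 669 bases of Robo3-206. With all 5 transcripts that span the intron, the retained share was 15.2% in replicate 2 and 16.0% in replicate 1. That wider share thus also counts transcripts with no annotated coding part.

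Robo3 transcripts also differ in their first exon. Robo3-205 and Robo3-201 begin at the same downstream first exon, and Robo3-202 begins farther upstream. Spliced Robo3-201, of 4712 bases, was listed at 0 in both libraries, so that within full-length transcripts the downstream first exon was seen with the retained intron and the upstream one with the spliced intron. No annotated transcript joins the upstream first exon to the retained intron over the full length, so the estimate of each form also takes in reads at the 5′ end.

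**Figure D2:**
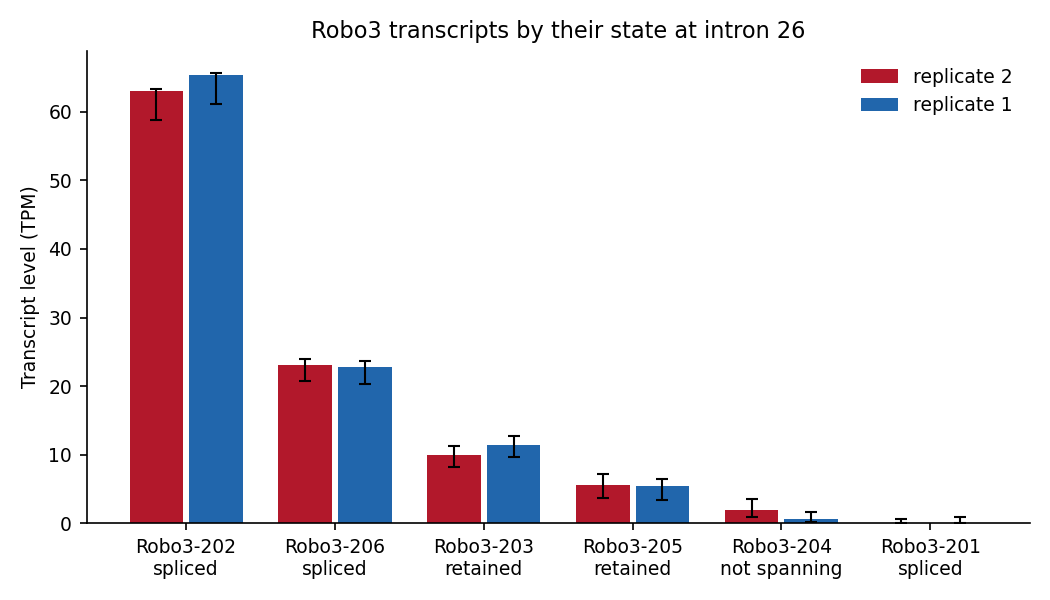
Level of each Robo3 transcript in TPM (vertical axis) in replicate 2 (red) and replicate 1 (blue), named by its state at intron 26. Black lines are the deposited intervals, whose level is not stated, and spliced Robo3-202 at 63.0 and 65.4 TPM stands far above retained Robo3-205 at 5.55 and 5.40 TPM.

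Among the Srgap genes, which encode F-BAR proteins with a GTPase-activating part, Srgap3 was the highest. It had 30.3 TPM in replicate 2 and 32.0 in replicate 1, or 46.7 ± 1.06% of the summed Srgap TPM. Srgap1 had 22.6 TPM in replicate 2 and 25.97 in replicate 1, or 36.4 ± 1.42%. Srgap2 had 11.0 TPM in replicate 2 and 11.6 in replicate 1, or 16.9 ± 0.367%. The family summed to 63.9 TPM in replicate 2 and 69.5 in replicate 1, the lowest of the families, against 166 and 167 TPM for the Slit genes and 209 and 212 TPM for the Robo genes.

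Srgap1 stood above Srgap2 as a gene, and above it by less in full-length coding transcripts. Srgap1-205, a transcript of 1457 bases with a retained intron over exons 1 to 4, had 14.6 TPM in replicate 2 and 17.9 in replicate 1. The full-length coding transcripts of Srgap1 had 7.76 TPM in replicate 2 and 7.84 in replicate 1, and those of Srgap2 had 7.19 TPM and 6.07 TPM. Srgap3 kept the lead with 17.7 TPM in replicate 2 and 16.4 in replicate 1.

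The full-length coding transcripts of Srgap3 and Srgap1 each come with a choice at exon 12, between a long exon of 103 bases and a short one. The long exons of the 2 genes have the same length and are printed with the bases that differ in capitals. They are exon 12 of Srgap3-202 (GRCm38 chr6:112754571-112754673, minus strand) and of Srgap1-202 (GRCm38 chr10:121829227-121829329, minus strand).
Srgap3-202 exon 12: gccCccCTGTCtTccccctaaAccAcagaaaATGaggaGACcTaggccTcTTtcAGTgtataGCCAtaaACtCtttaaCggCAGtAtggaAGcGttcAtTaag
Srgap1-202 exon 12: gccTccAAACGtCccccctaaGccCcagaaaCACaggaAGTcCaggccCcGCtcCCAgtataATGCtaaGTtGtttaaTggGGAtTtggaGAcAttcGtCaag

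The short exons at the same place have 31 bases in Srgap3-203 (GRCm38 chr6:112750381-112750411, minus strand) and 34 bases in Srgap1-201 (GRCm38 chr10:121828729-121828762, minus strand). Srgap2-201 has an exon of 25 bases as its exon 13 (GRCm38 chr1:131332117-131332141, minus strand). These are printed in capitals with 15 bases of the exons on each side, and the 3 downstream exons begin much alike.
Srgap3-203 exon 12: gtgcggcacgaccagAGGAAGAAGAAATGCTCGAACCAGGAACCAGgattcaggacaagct
Srgap1-201 exon 12: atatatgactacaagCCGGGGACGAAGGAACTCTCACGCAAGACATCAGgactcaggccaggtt
Srgap2-201 exon 13: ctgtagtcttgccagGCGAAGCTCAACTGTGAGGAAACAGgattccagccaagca

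The long exons of Srgap3 and Srgap1 match at 64 of 103 bases (62.1%). In Srgap3 the long exon was the more used one: Srgap3-202 had 10.9 TPM in replicate 2 and 11.2 in replicate 1, and Srgap3-203 had 6.79 TPM and 5.24 TPM. The long exon thus had 61.7% of full-length coding Srgap3 in replicate 2 and 68.0% in replicate 1. In Srgap1 it was the reverse, and Srgap1-201 with the short exon had 7.76 TPM in replicate 2 and 6.99 in replicate 1. Srgap1-202 with the long exon was listed at 0 in replicate 2 and had 0.850 TPM in replicate 1, with deposited intervals from near 0 to 1.02 TPM and from 0.240 to 2.19 TPM. Both pairs also differ at their first exon, so the choice at exon 12 was not measured by itself.

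All of full-length coding Srgap2 held the exon of 25 bases, since both of its transcripts include it. Srgap2-201 led with 6.51 TPM in replicate 2 and 5.55 in replicate 1. The share of Srgap2 TPM on full-length coding transcripts was 65.7% in replicate 2 and 52.5% in replicate 1, whereas its share of expected counts was 88.9% and 86.2%. The short transcript Srgap2-206, of 395 bases, had 0.520 TPM in replicate 2 and 1.77 in replicate 1, from 3.15 and 10.4 expected counts.

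Across the 9 genes with 2 or more transcripts, 4 had under 50% of their TPM on full-length coding transcripts in both libraries. These were Slit3 with 15.7% in replicate 2 and 14.1% in replicate 1, Srgap1 with 34.4% and 30.2%, Slit2 with 36.4% and 34.8%, and Robo2 with 41.3% and 37.5%. Of 8077 protein-coding genes with at least 5 TPM and 2 transcripts, 18.3% did so, and their median share was 82.9% in replicate 2 and 82.3% in replicate 1. Counted in expected reads in place of TPM, 1 of the 9, Slit3, stayed under 50% in both, against 9.27% of the 8077 genes. TPM divides reads by length, so a short transcript weighs more in it for each read.

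**Figure D3:**
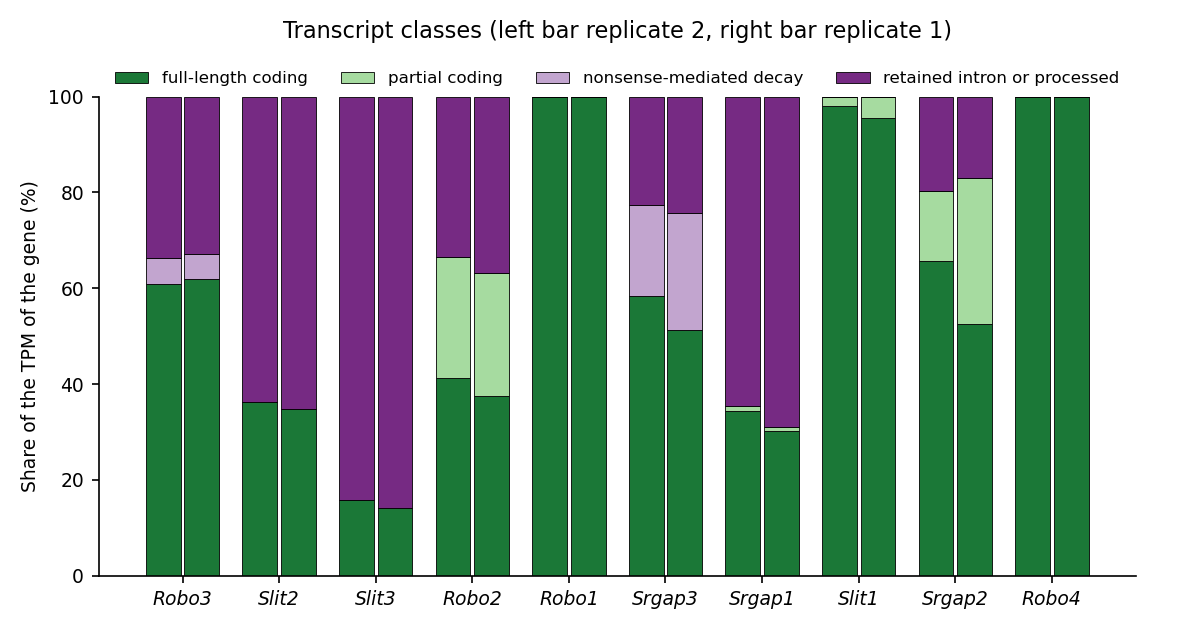
Share of the TPM of each gene (vertical axis, percent) by class of transcript, with replicate 2 as the left bar and replicate 1 as the right bar of each pair. Robo1 and Robo4 are entirely full-length coding, and retained intron or processed transcripts hold 84.3% and 85.9% of Slit3.

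The pools differed little in these genes. As log2 ratios of TPM + 1, with replicate 2 on top, the 10 genes lay between -0.19 (Srgap1 and Slit3) and 0.18 (Robo4), with a median of -0.03. None was 2-fold apart, against 1.44% of 15735 genes with a mean of 1 TPM or more (0.597% higher and 0.839% lower in replicate 2). The median log2 ratio of those genes was 0.03. The log2 ratios of genes between 5 and 120 TPM had an SD of 0.23, so no member stood outside that spread. Of the 10 genes, 3 were higher in replicate 2 and 7 lower, against 58.5% of the 15735 genes higher. With TMM or DESeq2 scaling of the counts, 5 of the 10 were higher and 5 lower.

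Slit3 was the 1 gene of the 10 whose deposited TPM intervals did not overlap, from 49.6 to 55.6 TPM in replicate 2 and from 56.8 to 63.5 TPM in replicate 1, against 14.3% of all genes tested. Its share of gene counts was lower in replicate 2 by a log2 ratio of -0.16 (95% binomial interval -0.26 to -0.07, exact and for counting error only). Such an interval excluded 0 for 7 of the 10 genes. The share of all genes for which it did so was not computed, so this count is not read as a trait of the 10. In full-length coding transcripts its log2 ratio was -0.04, and the noncoding Slit3-202 had 43.8 TPM in replicate 2 and 50.5 in replicate 1. For Robo1 and Robo3 the deposited interval did not hold the deposited TPM in either library, which limits what intervals can show here.

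Slit1 and Slit2 were higher in replicate 2 on each of 6 scales tried, with log2 ratios from 0.13 to 0.17 for Slit1 and from 0.06 to 0.14 for Slit2. Robo4 was also higher on each, from 0.16 to 0.21, with a counting interval of -0.02 to 0.37 that includes 0. Slit3, Robo1, Robo3 and Srgap1 were lower in replicate 2 on each of the 6, by as little as -0.01 for Robo1 and for Srgap1. The 6 scales rest on the same reads of the same pools, and the share of all genes that keep their sign was not computed. Srgap2, Srgap3 and Robo2 changed sign with the scale. Srgap2 had a log2 ratio of -0.07 in gene TPM, 0.16 in its share of counts and 0.21 in full-length coding transcripts, so no direction can be given for it.

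**Figure D4:**
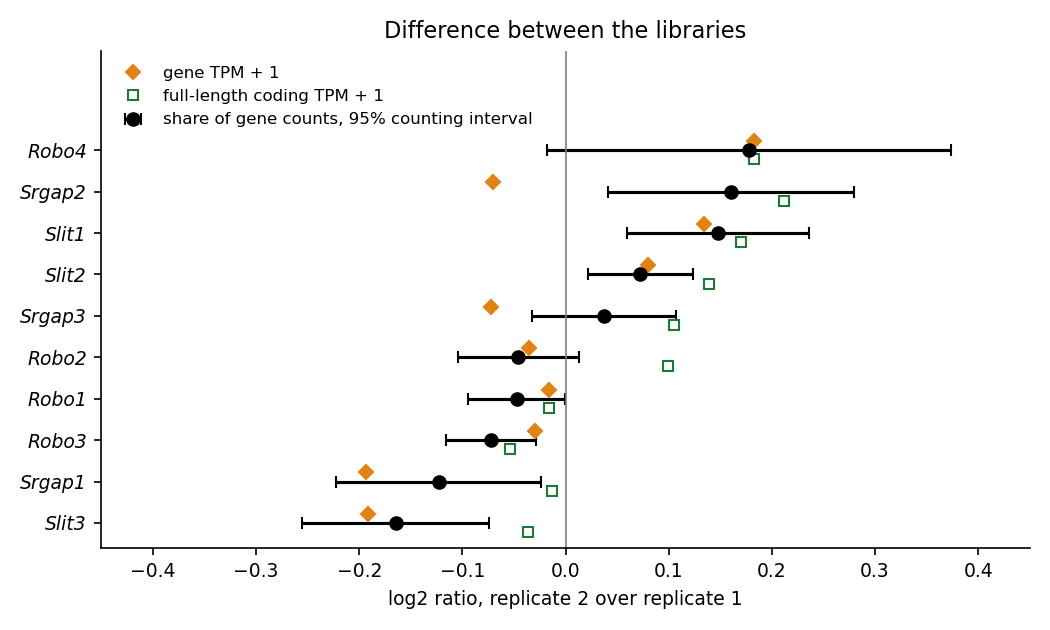
log2 ratio of replicate 2 over replicate 1 (horizontal axis) for each gene, from its share of gene counts with a 95% counting interval (black), its TPM (orange) and its full-length coding TPM (green). The points lie between -0.19 and 0.21, and Srgap2 and Srgap3 are to the left of 0 in gene TPM and to the right on the other scales.

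Markers of sensory ganglia and muscle differed more between the pools than the 10 genes did. All 5 sensory ganglion markers were higher in replicate 2, with a median log2 ratio of 0.59, and all 6 muscle markers were lower, with a median of -0.41. Of the 9 endothelial markers 8 were higher in replicate 2, with a median of 0.08, against 58.5% of all genes tested and a median of 0.03. The markers of the floor plate, where Slit genes are known to be made, had a median of -0.03, with 2 of 5 higher. Those of dI1 commissural neurons, which make Robo3, went both ways, from -0.39 for Lhx9 to 0.69 for Atoh1, with 2 of 5 higher in replicate 2 and a median of -0.14. Atoh1, named after its values were seen, had 7.04 TPM in replicate 2 and 3.99 in replicate 1. The part of tissue makeup in the small differences of the 10 genes was not tested.

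The markers of the cells that the genes are known from were present. The highest 3 floor plate markers were Spon1 with 72.9 TPM in replicate 2 and 71.8 in replicate 1, Ntn1 with 39.6 and 39.2 TPM, and Sulf1 with 36.5 and 38.7 TPM. The lowest of the list were Shh and Foxa2, which define the floor plate more narrowly, with averages of 2.89 and 2.55 TPM. The dI1 markers were led by Barhl1 with 11.3 TPM in replicate 2 and 14.4 in replicate 1, followed by Lhx9 with 5.39 and 7.35 TPM and Lhx2 with 6.18 and 5.67 TPM. Motor neurons, which also make Slit proteins, showed all 7 markers, led by Isl1 with 156 TPM in replicate 2 and 110 in replicate 1, Isl2 with 51.8 and 38.3 TPM, and Slc18a3 with 24.8 and 27.3 TPM. Of the 7, 3 were higher in replicate 2 and 4 lower, from -0.49 (Mnx1) to 0.49 (Isl1) with a median log2 ratio of -0.13. Isl1 and Isl2 are also made by sensory ganglion neurons.

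Genes for the other parts of the pathway were nearly all detected, against 62.1% of 21474 protein-coding genes. Genes for proteins that bind Slit, or that carry or make heparan sulfate, were detected in 12 of 12 cases. They lay between 8.84 TPM and 61.0 TPM on average. The highest 3 were Ext2, an enzyme that builds heparan sulfate chains, with 63.5 TPM in replicate 2 and 58.5 in replicate 1, the heparan sulfate proteoglycan Gpc1 with 57.9 and 61.8 TPM, and the dystroglycan gene Dag1 with 52.4 and 45.7 TPM. Robo partners and other guidance ligands and receptors were detected in 8 of 8 cases. Cdh2, the N-cadherin gene, had 184 TPM in replicate 2 and 174 in replicate 1, Nell2, the ligand of Robo3, had 134 and 143 TPM, and the netrin receptor Dcc had 50.3 and 45.4 TPM.

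Cytoplasmic effectors were detected in 17 of 17 cases. The highest 3 were the GTPase gene Cdc42 with 558 TPM in replicate 2 and 548 in replicate 1, the beta-catenin gene Ctnnb1 with 437 and 413 TPM, and the GTPase gene Rhoa with 258 and 299 TPM. Genes of Robo trafficking and RNA control were detected in 13 of 14 cases. The ubiquitin ligase gene Nedd4 had 528 TPM in replicate 2 and 499 in replicate 1, and its adaptor Ndfip1, which lowers Robo levels, had 466 and 470 TPM. Prrg4, a vertebrate relative of the fly gene commissureless, had 0.300 TPM in replicate 2 and 0.380 in replicate 1.

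Other F-BAR proteins, the wider family of the Srgap proteins, were detected in 15 of 17 cases, led by Fnbp1l with 88.1 TPM in replicate 2 and 87.0 in replicate 1, Fcho1 with 31.6 and 28.2 TPM, and Pacsin2 with 29.1 and 27.1 TPM. Pstpip1, a gene of blood cells, had 0.610 TPM in replicate 2 and 0.640 in replicate 1, and Pstpip2, named after its values were seen, had 1.05 and 0.780 TPM. No gene of the 5 lists was 2-fold apart between the pools, against 1.44% of 15735 genes with a mean of 1 TPM or more. Over all genes of a list, median levels ran from 16.6 TPM to 52.6 TPM in replicate 2. In replicate 1 they ran from 14.6 TPM to 49.3 TPM. The median of all protein-coding genes was 5.655 TPM in replicate 2 and 5.5 in replicate 1. That of the detected ones alone was 21.69 and 20.97 TPM.

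**Figure D5:**
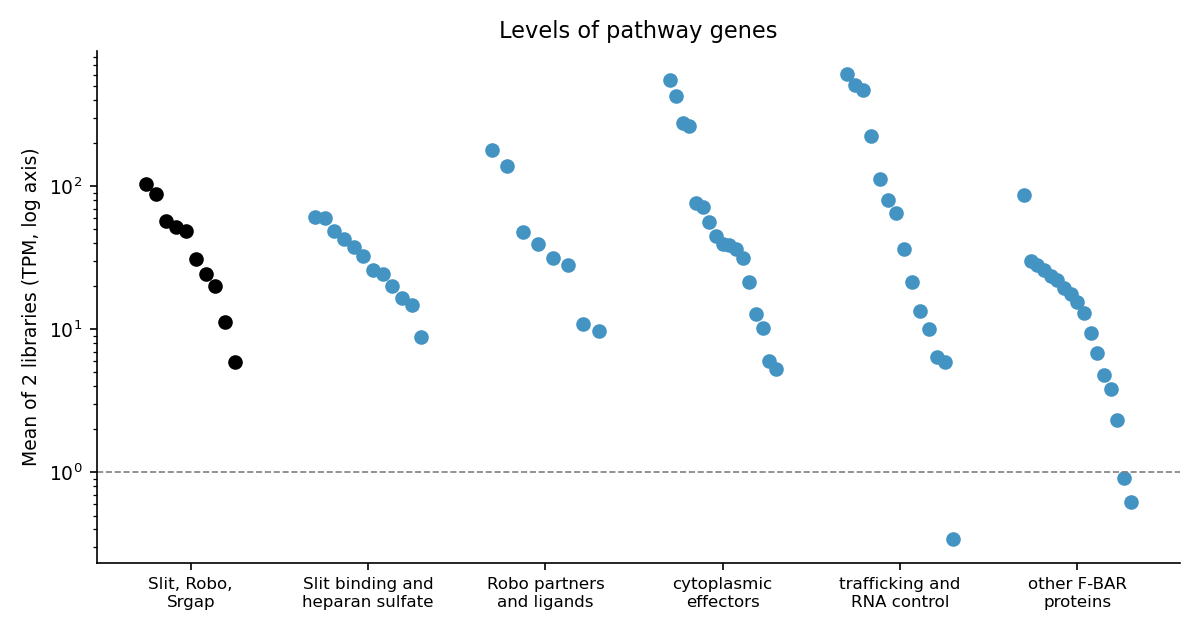
Mean TPM of the 2 libraries (vertical axis, log scale) of the Slit, Robo and Srgap genes (black) and of each gene of 5 pathway lists (blue), sorted within a list, with a dashed line at 1 TPM. The 10 genes run from 5.90 to 104 TPM, and Prrg4, Pstpip1 and Pstpip2 are the points below the line.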

How the data were processed

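The authors deposited a gene table and a transcript table for each library, made from alignments to the transcriptome (mm10, GENCODE M4), per the deposited read-me text. Neither the program nor the use of strand is given in the sources used here. Per the file headers, the values are expected counts, TPM and FPKM, bounds of a TPM interval, and the percent of each transcript within its gene. The series is marked as superseded, and the later one was not used here.

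Identifiers were matched without version to GENCODE M21 on GRCm38, the same assembly. TPM was summed over full-length coding transcripts, and ratios were taken on log2(TPM + 1) over all genes with a mean of 1 TPM or more. Expected counts were rounded for the scaling alternatives of edgeR 4.0.16 and DESeq2 1.42.0. Intervals of count shares are exact (Clopper-Pearson, 95%). A count of 0 allows up to 3 counts, or 0.0895 CPM for replicate 2 and 0.0949 for replicate 1. Floors and intervals cover counting error only. Coding parts were aligned with Biopython 1.88, and protein sequences were not used here. The log2 ratio between the libraries and its 2-fold call were tested on simulated gene counts.

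All 10 members were named. Of each pathway list the 3 highest, and genes under 1 TPM in both libraries or 2-fold apart, were named, and of the marker lists the highest 3 where a member marks that cell type. An item that the rule takes is not reported here. Members, lists and the rule were chosen with earlier results of these data known, and the full-length coding scale after seeing the values.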

Additional observations from a re-analysis of the deposited data

How the results depend on the processing

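The number of genes detected (10), the number 2-fold apart (0) and the number detected in each pathway list stayed within 1.5 times under each alternative run for them. In expected counts the Slit, Robo and Srgap sums were 10318, 20933 and 6136; they were 165, 206 and 67.5 TPM by the posterior mean, and 59.8, 139 and 31.5 TPM over full-length coding transcripts alone. Without 1 replicate the sums ran from 166 to 167 TPM for Slit, from 209 to 212 TPM for Robo and from 63.9 to 69.5 TPM for Srgap. The number of genes with under 50% of TPM on full-length coding transcripts was 4 and became 1 in expected counts and 3 when every transcript typed as coding was summed. The retained share of Robo3 was 8.30% in expected counts and 15.6% over all transcripts that span the intron, and 7.63% to 8.10% without 1 replicate. No paired analysis was possible because there is 1 group. Precision is limited by n = 2, by transcript estimates that share reads, and by transcript models that differ between M4 and M21 for 22 of the 71 transcripts. The cause of these changes was not tested.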

Other observations

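Some of the genes that overlap the 10 genes were in the tables, and those named here were low. Within Slit2, the antisense gene 4930518C09Rik had 1.03 TPM in replicate 2 and 0.930 in replicate 1, from 8 and 7 expected counts. Within Srgap2, Gm37954 had 1.65 TPM in replicate 2 and 1.25 in replicate 1, from 67 and 49 counts, and Gm29488 had 0.760 and 0.700 TPM from 36 and 32 counts. Gm37954 and Gm29488 lie on the strand of Srgap2, and 4930518C09Rik on the strand opposite to Slit2. How reads were divided between these genes and their hosts was not tested.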
